A study of Mus musculus with 2 samples.

Results

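Erythroblasts are the precursor cells from which red blood cells form, and ATAC-seq was used to find their open chromatin in the mouse. Described here are 7 genes with many open sites around them: Hemgn, Wdr26, Cdk5rap3, Pofut2, Smtnl1, Ccl22 and Abcf1. In ATAC-seq a transposase cuts accessible DNA, and stretches with many cuts are called as peaks. Each of these genes had 7 or more distal sites within 50 kb of its 5' end in the GENCODE M21 annotation (mm10). A distal site here is a peak found in the thresholded lists of both replicates whose summits in both replicates lay over 1 kb from every annotated transcription start site. These 7 were named out of 79 protein-coding genes that met this count, among 21938 in all (0.360%), and they had 57 of the 6415 distal sites. The genes were chosen by this measured count, so it is described and not tested.

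Primary erythroblasts came from adult C57BL/6J males of 5 to 6 weeks, with 50000 cells per library, in 1 group of 2 biological replicates, with no treatment and no second group. The labels give each replicate a biosample of its own but the same donor identifier, and they do not say from which tissue or by which markers the cells were taken. Replicate 2 is listed with a pair of sequencer models. The thresholded lists, which keep peaks by their irreproducible discovery rate (IDR), held 17777 peaks in replicate 1 and 18837 in replicate 2. No list gives read counts, so the depth of the libraries is unknown. Erythroblast markers had open promoters in 10 of 10 cases, against 1 of 5 for megakaryocytes (Itga2b) and 41.4% of all protein-coding genes. All marker lists were chosen with earlier results of these data known. The lists for hepatocytes, T cells, B cells, myeloid cells and antigen-presenting cells, the last of which includes Ccl22, had 0 of 5 open each. Cells were measured in bulk, so a weak peak and a peak open in fewer cells cannot be told apart.

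Distal open sites mostly mark enhancers and insulators, to which transcription factors bind and displace nucleosomes. In erythroid cells many enhancers are bound by GATA1 together with TAL1, whose DNA elements, an E-box part and a GATA word, lie at a fixed spacing. KLF1, which binds CACC-type sequence, and CTCF, which marks insulators, bind others. An open site does not name the gene it acts on, and it may act on a gene other than the nearest.

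The strongest distal site of each gene, by its mean rank of enrichment, is shown with 75 bases on either side of the summit of replicate 1 (RefSeq genome GRCm38.p6, mm10), as 1 example per window. Capitals mark matches on either strand to a GATA word (GATA with A or T before it and A or G after it), a KLF word (CCNCNCCC) or a CTCF word (CCA, then AG, then GGC, with 2 free bases in each gap).
Hemgn, chr4:46432449-46432599, plus strand: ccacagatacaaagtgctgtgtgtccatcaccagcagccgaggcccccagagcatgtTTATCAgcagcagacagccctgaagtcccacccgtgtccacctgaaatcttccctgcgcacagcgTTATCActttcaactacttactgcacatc
Wdr26, chr1:181216440-181216590, plus strand: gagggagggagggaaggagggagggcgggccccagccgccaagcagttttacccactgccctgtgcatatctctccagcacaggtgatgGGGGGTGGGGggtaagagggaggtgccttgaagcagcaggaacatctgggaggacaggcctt
Cdk5rap3, chr11:96963669-96963819, plus strand: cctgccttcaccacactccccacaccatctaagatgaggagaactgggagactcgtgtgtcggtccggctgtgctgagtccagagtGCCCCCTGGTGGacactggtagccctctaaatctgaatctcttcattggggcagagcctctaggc
Pofut2, chr10:77232446-77232596, plus strand: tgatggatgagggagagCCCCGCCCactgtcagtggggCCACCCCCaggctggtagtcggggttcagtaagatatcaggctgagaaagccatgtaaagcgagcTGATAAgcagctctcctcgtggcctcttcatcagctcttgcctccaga
Smtnl1, chr2:84812032-84812182, plus strand: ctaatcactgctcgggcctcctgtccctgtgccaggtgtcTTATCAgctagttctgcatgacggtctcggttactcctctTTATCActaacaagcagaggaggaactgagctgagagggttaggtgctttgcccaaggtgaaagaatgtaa
Ccl22, chr8:94794897-94795047, plus strand: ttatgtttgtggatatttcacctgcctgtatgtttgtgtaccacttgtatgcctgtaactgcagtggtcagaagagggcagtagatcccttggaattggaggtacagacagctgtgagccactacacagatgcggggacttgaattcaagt
Abcf1, chr17:35937798-35937948, plus strand: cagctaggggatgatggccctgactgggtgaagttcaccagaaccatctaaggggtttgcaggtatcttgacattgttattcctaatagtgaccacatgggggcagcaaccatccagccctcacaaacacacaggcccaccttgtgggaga
The Hemgn site and the Smtnl1 site held 2 GATA words each, and the Pofut2 site held 1 GATA word with 2 KLF words. At Wdr26 the capitals are 2 overlapping KLF matches, and at Cdk5rap3 they are 1 CTCF match. The Ccl22 site and the Abcf1 site held none of the 3 kinds of word, and 81.5% of the bases at Ccl22 are masked as repeats in the reference.

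An E-box part and a GATA word at the spacing bound by TAL1 with GATA1, written CTGNNNNNNNNGATAA or CTGNNNNNNNNNGATAA, were found at 8 of the 57 distal sites (14.0%), against 12.7% of all 6415 distal sites in windows of the same length. Of these, 7 are shown on the strand on which the E-box part comes first, with both parts in capitals, so that their spacing can be compared. Such a match overlaps the GATA word it contains.
Hemgn 19.0 kb upstream, chr4:46432491-46432537, minus strand: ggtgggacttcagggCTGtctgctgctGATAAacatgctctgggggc
Hemgn 2.63 kb downstream, chr4:46410848-46410894, plus strand: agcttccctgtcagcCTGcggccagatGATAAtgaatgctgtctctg
Wdr26 34.1 kb upstream, chr1:181246032-181246078, minus strand: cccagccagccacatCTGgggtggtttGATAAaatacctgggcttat
Cdk5rap3 1.16 kb upstream, chr11:96917640-96917686, plus strand: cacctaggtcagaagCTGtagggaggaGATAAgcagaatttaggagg
Pofut2 37.9 kb upstream, chr10:77221356-77221401, plus strand: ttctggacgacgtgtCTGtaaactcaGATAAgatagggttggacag
Smtnl1 10.5 kb downstream, chr2:84812097-84812143, minus strand: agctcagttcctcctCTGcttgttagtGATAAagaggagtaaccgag
Abcf1 49.8 kb downstream, chr17:35919973-35920018, minus strand: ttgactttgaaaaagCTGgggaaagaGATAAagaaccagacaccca
The spacing was 9 bases at 5 of the 7 sites shown and 8 bases at the sites of Pofut2 and Abcf1. The Hemgn element lay 4 bases from the summit of replicate 1 at the intronic site and 10 bases from it at the upstream site. Ccl22 had no such element.

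The distal sites lay on both sides of most of the genes, with 40 of the 57 upstream of the 5' end and 17 downstream. All 10 sites of Cdk5rap3 and 7 of 8 of Wdr26 lay upstream. The other genes had 4 or 5 sites each upstream and 2 to 4 downstream. Within 10 kb of the 5' end lay 9 sites, and 16 lay over 40 kb away. The same shares over all genes were not computed. Neighbouring sites were 7.37 kb apart at the median, from 0.417 kb to 59.3 kb, and 6 of the 50 gaps were under 1 kb. By annotation, 29 were intergenic (50.9%), 23 intronic (40.4%) and 5 exonic (8.77%), against 39.8%, 52.7% and 7.47% of all distal sites. The nearest start site of a protein-coding gene was that of the named gene itself for 21 of the 57 sites.

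**Figure D1:**
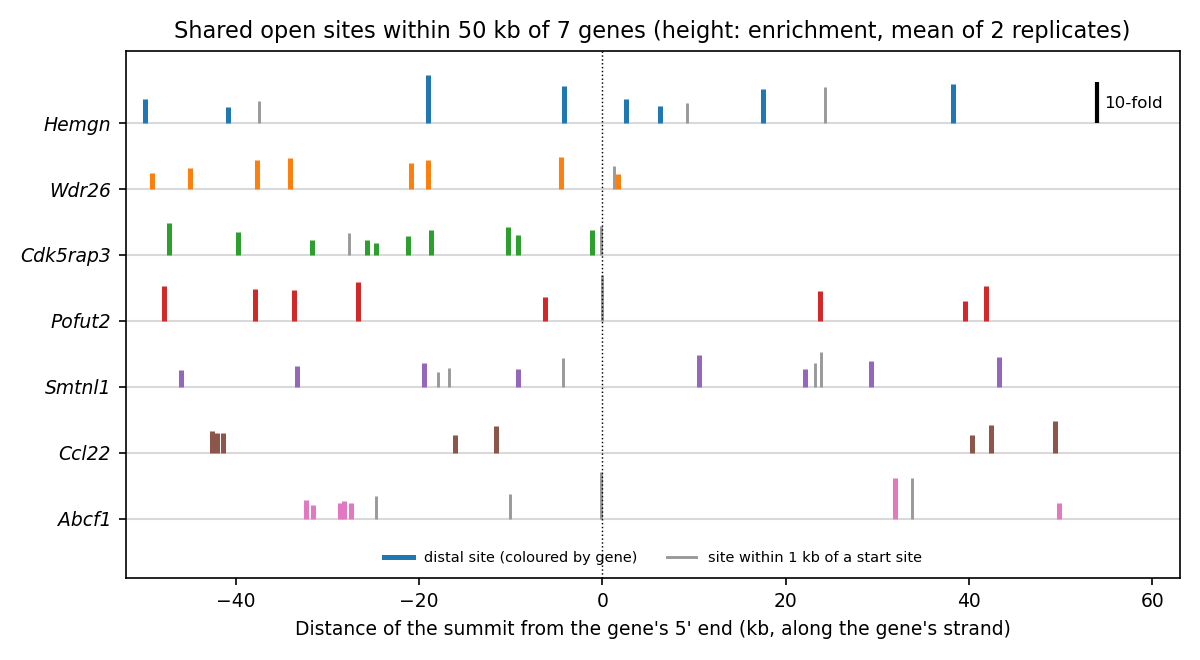
The horizontal axis gives the distance of each summit in replicate 1 from the gene's 5' end in kb along the gene's strand, and the height of each bar gives the enrichment as the mean of 2 replicates, against the scale bar. Wide coloured bars are the 57 distal sites, thin grey bars are shared sites within 1 kb of a start site, and the Ccl22 row has no grey bar.

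Enrichment is the authors' fold of the summit over background, and significance is their −log10 p of the same summit. Neither is stated to be comparable between lists, so each site was also ranked among all 6415 distal sites within each list, as a percentile averaged over the replicates. Below, enrichments and significances are given for replicate 1 and then replicate 2, and positions are those of the summit in replicate 1.

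Hemgn (ENSMUSG00000028332.13, chromosome 4, 46393989 to 46413506 on the minus strand) encodes hemogen, a nuclear protein of blood-forming cells and a known target of GATA1 in red cell precursors. Its window held 8 distal sites, 4 on each side of the 5' end, and among them stood the strongest of all 57. Upstream at 19.0 kb (summit 46432524), enrichment was 11.8 in replicate 1 and 11.8 in replicate 2, with significances of 81.9 and 84.8. The peak 4.15 kb upstream (summit 46417652) had enrichments of 9.01 and 9.07 and significances of 38.6 and 40.5. A peak 38.3 kb downstream, with its summit at 46375194, reached enrichments of 9.10 and 9.81 and significances of 40.03 and 47.6. All of these lie between genes and ranked high among distal sites by enrichment, at percentiles 94.5, 76.4 and 80.4. Enrichments of 8.27 and 8.43, with significances of 64.7 and 70.5, were listed 17.6 kb downstream (summit 46395930). This site is in an exon of Hemgn. For the site 2.63 kb downstream (summit 46410875), the enrichments were 5.86 and 5.96 and the significances 46.7 and 51.6. Downstream at 6.34 kb (summit 46407165), enrichment was 3.96 in replicate 1 and 4.22 in replicate 2, with significances of 29.7 and 36.0. Both are intronic, in the stretch between the annotated starts of Hemgn. The peak 49.8 kb upstream (summit 46463350) had enrichments of 5.92 and 6.08 and significances of 19.9 and 20.8. A peak 40.8 kb upstream, with its summit at 46454289, reached enrichments of 3.73 and 3.96 and significances of 19.4 and 23.3. The last pair lies in introns of Anp32b, a histone chaperone gene, whose 5' end is 37.4 kb upstream.

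The Hemgn promoter was open but weak. The promoter peak stood at an inner start of the gene in GENCODE, 9.27 kb from the outermost 5' end, with its summit 5 bases from that start. It had enrichments of 4.73 and 4.97, at percentiles 2.13 and 2.64 of open promoters, where open means a peak within 1 kb of a start site in both replicates. Measured from this inner start, the pair of intronic sites lies upstream. Near it, the sequence again holds an E-box part with a GATA word at a spacing of 8 bases. This element stands 23 bases before the RefSeq start (46404183), but downstream of the inner GENCODE start at which the promoter peak stood. It is shown with both parts in capitals to set beside the distal ones:
Hemgn promoter, chr4:46404184-46404213, minus strand: ctcacacCTGtgcagtgtGATAAagaaagt
Of 32817 promoter windows in RefSeq (GRCm38.p6, 250 bases before to 50 after the start), 1.46% held this element and 29.8% a GATA word. All 7 genes matched, with 8 windows, of which 1 held the element and 1, the same, a GATA word. A KLF word was in 7 of the 8, against 49.5% of all windows. Trmo, a tRNA methyltransferase gene 24.1 kb downstream, and Anp32b also had open promoters, with enrichments of 8.75 ± 0.0179 and 5.38 ± 0.287 (mean and SD of 2 replicates). Hemgn is the erythroid gene of this window by its known role, and 3 of the 8 sites are nearest to its start, 3 to Anp32b and 2 to Trmo.

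Wdr26 (ENSMUSG00000038733.14, chromosome 1, 181173228 to 181212001 on the minus strand) encodes a subunit of the CTLH ubiquitin ligase, which acts in the late maturation of erythroblasts. It was the only protein-coding gene with its 5' end in its window, and 7 of its 8 distal sites lay upstream in intergenic sequence. Enrichments of 7.33 and 8.06, with significances of 72.3 and 85.1, were listed 4.51 kb upstream (summit 181216515). For the site 19.0 kb upstream (summit 181230957), the enrichments were 7.58 and 6.48 and the significances 55.6 and 44.2. Upstream at 20.8 kb (summit 181232848), enrichment was 6.71 in replicate 1 and 6.18 in replicate 2, with significances of 44.6 and 39.9. The last 2 of these stand 1.89 kb apart. The peak 34.1 kb upstream (summit 181246062) had enrichments of 7.93 and 7.04 and significances of 47.6 and 40.6. A peak 37.7 kb upstream, with its summit at 181249710, reached enrichments of 6.51 and 7.54 and significances of 34.6 and 46.4. Enrichments of 5.05 and 5.31, with significances of 53.9 and 60.3, were listed 44.9 kb upstream (summit 181256920). These 6 sites ranked between percentiles 16.96 and 57.9 by enrichment, but between 60.4 and 92.9 by significance. For the site 49.1 kb upstream (summit 181261125), the enrichments were 3.61 and 3.99 and the significances 25.3 and 31.6. Downstream at 1.73 kb (summit 181210275), enrichment was 3.80 in replicate 1 and 3.70 in replicate 2, with significances of 19.1 and 17.98. Both lay at the low end by enrichment, at percentiles 3.31 and 3.02.

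The order of the strongest Wdr26 sites was not the same in both replicates. The site 34.1 kb upstream had the highest enrichment in replicate 1, and that 4.51 kb upstream in replicate 2. At the promoter, a peak inside the gene with its summit 1.33 kb from the outermost 5' end and 759 bases from an annotated start had enrichments of 5.73 and 5.62. With the outermost 5' end as the only start, the Wdr26 promoter did not count as open in both replicates. All 8 sites were nearest to Wdr26 among protein-coding genes. The next open promoters, those of Cnih4 and Nvl, lay 67.3 kb and 67.8 kb downstream, and Wdr26 is the gene of the window with a known role in erythroblasts.

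Cdk5rap3 (ENSMUSG00000018669.14, chromosome 11, 96907426 to 96916496 on the minus strand) encodes a part of the ligase complex that attaches the ubiquitin-like protein Ufm1, and partners of it, Ufl1 and Ddrgk1, are needed for red cell formation in mice. It had the most distal sites of the 7 genes, 10, and all lay upstream, within the span of the non-coding gene D030028A08Rik. The peak 1.16 kb upstream (summit 96917654) had enrichments of 6.11 and 6.26 and significances of 68.0 and 73.7. A peak 9.18 kb upstream, with its summit at 96925675, reached enrichments of 5.23 and 4.51 and significances of 23.4 and 18.9. Enrichments of 6.90 and 6.72, with significances of 37.2 and 37.7, were listed 10.2 kb upstream (summit 96926745). The first of these ranked at percentile 89.6 by significance and 31.9 by enrichment, and its peak reached within 1 kb of a start site, so it is lost when the edge of the peak is measured. For the site 18.7 kb upstream (summit 96935192), the enrichments were 6.06 and 6.26 and the significances 39.3 and 43.0. Upstream at 21.2 kb (summit 96937692), enrichment was 4.50 in replicate 1 and 4.64 in replicate 2, with significances of 33.2 and 36.8. Both are in exons of Prr15l.

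Farther upstream of Cdk5rap3 stood its weakest sites and its strongest one by enrichment. The peak 24.7 kb upstream (summit 96941231) had enrichments of 2.78 and 3.00 and significances of 15.6 and 19.8. A peak 25.7 kb upstream, with its summit at 96942147, reached enrichments of 3.70 and 3.57 and significances of 29.4 and 28.8. Enrichments of 3.63 and 3.62, with significances of 20.3 and 21.9, were listed 31.6 kb upstream (summit 96948127). The first 2 are 0.916 kb apart, and all lie in introns. The same 3 sites were the weakest of the Cdk5rap3 window, at percentiles of 0.257, 2.28 and 2.22 by enrichment, yet held 1, 2 and 3 GATA words. For the site 39.7 kb upstream (summit 96956222), the enrichments were 5.62 and 5.76 and the significances 25.7 and 29.1. Upstream at 47.2 kb (summit 96963744), enrichment was 7.48 in replicate 1 and 8.09 in replicate 2, with significances of 39.6 and 50.5. Both lie in exons, the nearer one of Sp2, which encodes a zinc finger factor. The farther one was the strongest of this window by enrichment and held the CTCF word shown above. By significance it ranked at percentile 67.5, below the site 1.16 kb upstream at 89.6.

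The Cdk5rap3 promoter was open, with an enrichment of 6.95 ± 0.278 (mean and SD of 2 replicates). No promoter peak was found for Prr15l, even in the less strict lists. Of the 10 sites, 1 was nearest to Cdk5rap3, 3 to Prr15l and 1 to Sp2. Prr15l, which shares the window, also had 10 distal sites. Nfe2l1, a transcription factor gene, had its open promoter 86.5 kb downstream, outside the window. Cdk5rap3 is on the erythroid list used here, and whether the sites act on it was not tested.

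Pofut2 (ENSMUSG00000020260.9, chromosome 10, 77259218 to 77269575 on the plus strand) encodes an enzyme that adds fucose to thrombospondin repeats. Its 8 sites were the strongest set of the 7 genes, with a median enrichment of 7.71 ± 0.102 (SD, n = 2) and a median percentile of 56.4. Upstream, 4 strong sites stood in intergenic sequence towards Col18a1, a collagen gene. The peak 47.8 kb upstream (summit 77211418) had enrichments of 8.32 and 8.73 and significances of 46.1 and 54.4. A peak 37.9 kb upstream, with its summit at 77221350, reached enrichments of 7.74 and 7.64 and significances of 61.6 and 63.01. Enrichments of 7.82 and 7.18, with significances of 61.0 and 58.7, were listed 33.7 kb upstream (summit 77225542). The strongest of the 4 is the one whose sequence is shown above. For the site 26.7 kb upstream (summit 77232521), the enrichments were 9.58 and 9.08 and the significances 68.7 and 68.5. These 4 ranked between percentiles 54.6 and 79.4 by enrichment and between 73.5 and 88.2 by significance. Upstream at 6.20 kb (summit 77253019), enrichment was 5.84 in replicate 1 and 5.88 in replicate 2, with significances of 21.3 and 22.3. The peak 23.8 kb downstream (summit 77283006) had enrichments of 6.98 and 7.64 and significances of 22.4 and 25.6. Both ranked low by significance, at percentiles 17.6 and 24.4, and each held a CTCF word. A peak 41.9 kb downstream, with its summit at 77301093, reached enrichments of 8.90 and 8.03 and significances of 61.4 and 56.5. Enrichments of 4.91 and 4.53, with significances of 22.3 and 21.2, were listed 39.6 kb downstream (summit 77298834). Both are in an intron of Adarb1, an RNA-editing enzyme gene.

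The Pofut2 promoter was strongly open, with enrichments of 11.1 and 11.4 and a summit 27 bases from its start. No other protein-coding gene had its 5' end in the window, and 7 of the 8 sites were nearest to Pofut2 and 1 to Col18a1. The next open promoter belonged to Slc19a1, the reduced folate carrier, 227 kb upstream, and it had an enrichment of 10.8 ± 0.0551 (SD, n = 2). No gene of this window is on the erythroid list used here. Pofut2 was the one protein-coding gene with its 5' end there, and whether the sites act on it was not tested.

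Smtnl1 (ENSMUSG00000027077.7, chromosome 2, 84811176 to 84822652 on the minus strand) encodes a smoothelin-like protein of muscle. It had 8 distal sites but no promoter peak in either replicate, even among the less strict lists. The strongest of its sites by mean rank lies in its own intron. For the site 10.5 kb downstream (summit 84812107), the enrichments were 7.48 and 7.70 and the significances 76.5 and 81.3. It was also the most significant of the window, at percentile 93.3. Downstream at 22.1 kb (summit 84800515), enrichment was 4.03 in replicate 1 and 4.37 in replicate 2, with significances of 25.2 and 29.0. The peak 29.3 kb downstream (summit 84793336) had enrichments of 6.45 and 6.15 and significances of 28.5 and 27.0. These stand on either side of the Ube2l6 promoter, the first of them in a Ube2l6 intron. A peak 43.3 kb downstream, with its summit at 84779371, reached enrichments of 7.79 and 6.59 and significances of 23.5 and 18.3. Enrichments of 4.42 and 4.29, with significances of 24.4 and 22.8, were listed 9.19 kb upstream (summit 84831842). For the site 19.5 kb upstream (summit 84842152), the enrichments were 5.58 and 6.11 and the significances 61.1 and 70.5. The last is in an intron of Slc43a1, 1527 bp from a protein-coding start, and ranked at percentile 86.3 by significance. Upstream at 33.3 kb (summit 84855932), enrichment was 4.91 in replicate 1 and 5.39 in replicate 2, with significances of 24.4 and 28.9. The peak 46.0 kb upstream (summit 84868640) had enrichments of 4.04 and 4.19 and significances of 18.2 and 19.5. The lowest percentile of the window by enrichment was 5.44, at the site farthest upstream.

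The known erythroid genes of the Smtnl1 window were its neighbours. Ube2l6, an enzyme of ubiquitin and ISG15 conjugation, had its 5' end 23.8 kb downstream and a promoter enrichment of 8.36 ± 0.0405. Slc43a1, an amino acid transporter linked to hemoglobin production, lay 16.2 kb upstream and had 4.58 ± 0.297. Timm10, a chaperone gene of mitochondrial import 4.35 kb upstream, had 6.97 ± 0.519 (mean and SD of 2 replicates for each). Ube2l6 and Slc43a1 had a further peak each within 1 kb of a start, with mean enrichments of 5.76 and 3.56. None of the 8 sites was nearest to a start of Smtnl1, whereas 3 were nearest to Ube2l6, 2 to Slc43a1 and 1 each to Timm10, Serping1 and Rtn4rl2.

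Ccl22 (ENSMUSG00000031779.3, chromosome 8, 94745590 to 94751699 on the plus strand) encodes a chemokine made mainly by dendritic cells and macrophages. Its window held 8 distal sites, all intergenic, and no shared promoter peak of any gene. A peak 42.6 kb upstream, with its summit at 94703012, reached enrichments of 4.69 and 5.80 and significances of 28.3 and 43.9. Enrichments of 4.90 and 4.49, with significances of 30.6 and 27.1, were listed 42.1 kb upstream (summit 94703527). For the site 41.4 kb upstream (summit 94704181), the enrichments were 4.90 and 4.83 and the significances 30.6 and 31.2. These stand 0.515 kb and 0.654 kb apart, and their order by enrichment differed between the replicates. Upstream at 16.1 kb (summit 94729502), enrichment was 4.32 in replicate 1 and 4.13 in replicate 2, with significances of 24.4 and 23.3. The peak 11.6 kb upstream (summit 94733961) had enrichments of 6.46 and 6.72 and significances of 63.6 and 71.7. The second was the stronger, at percentiles of 38.9 by enrichment and 87.6 by significance. A peak 40.3 kb downstream, with its summit at 94785887, reached enrichments of 4.29 and 4.09 and significances of 33.6 and 31.6. Enrichments of 6.81 and 6.604, with significances of 79.0 and 77.9, were listed 42.4 kb downstream (summit 94787986). For the site 49.4 kb downstream (summit 94794972), the enrichments were 7.74 and 7.75 and the significances 28.9 and 31.5. The middle one of these ranked highest of the window by significance, at percentile 93.2, and the farthest, in repeat sequence, highest by enrichment, at 59.0.

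None of the genes around Ccl22 was open in both replicates. Cx3cl1, the chemokine fractalkine, had a thresholded promoter peak in replicate 1 alone (4.15) and, in the less strict lists, one in each replicate (4.15 and 4.25). Neither Ccl22 nor Pllp, which encodes plasmolipin, had one in any of these lists. The nearest open promoters lay outside: Arl2bp 79.0 kb upstream, with an enrichment of 13.5 ± 1.13, and Coq9 and Ciapin1, which share a peak of 8.50 ± 0.611 (SD, n = 2), 92.7 kb and 92.8 kb downstream. Ciapin1 is needed for blood formation in mice. Of the 8 sites, 3 were nearest to Pllp, 2 to Ccl22, 2 to Cx3cl1 and 1 to Ccl17. No gene of this window is on the erythroid list, and the lists name no target there.

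Abcf1 (ENSMUSG00000038762.15, chromosome 17, 35956819 to 35969761 on the minus strand) encodes a protein of the ABC family that acts in translation. It had 7 distal sites, the fewest of the 7 genes. The strongest by enrichment stood 59.3 kb from its nearest upstream neighbour. Downstream at 31.9 kb (summit 35937873), enrichment was 9.79 in replicate 1 and 10.1 in replicate 2, with significances of 31.4 and 34.0. At percentile 84.7 by enrichment it was far above the other 6, which ranked between 1.18 and 10.3. The peak 49.8 kb downstream (summit 35919972) had enrichments of 3.75 and 3.81 and significances of 29.9 and 31.2. It lies in an intron of Ppp1r10. The other 5 form a dense group in the gene A930015D03Rik with gaps from 0.417 kb to 3.01 kb. A peak 27.4 kb upstream, with its summit at 35997135, reached enrichments of 3.76 and 3.69 and significances of 28.6 and 28.7. Enrichments of 4.14 and 4.47, with significances of 38.4 and 46.4, were listed 28.1 kb upstream (summit 35997902). For the site 28.6 kb upstream (summit 35998319), the enrichments were 3.77 and 3.61 and the significances 31.6 and 30.0. The middle one had the highest values of these 3. Upstream at 31.6 kb (summit 36001331), enrichment was 3.32 in replicate 1 and 3.44 in replicate 2, with significances of 20.3 and 22.9. The peak 32.4 kb upstream (summit 36002118) had enrichments of 4.64 and 4.60 and significances of 39.5 and 40.04. By significance the same 5 ranked between percentiles 17.2 and 64.2. The site 31.9 kb downstream ranked at 46.7 by significance, below those 28.1 kb and 32.4 kb upstream (64.2 and 60.6).

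The Abcf1 promoter was strongly open, with enrichments of 11.1 and 11.5. Gnl1 and Prr3, which share a promoter peak 10.1 kb and 10.5 kb upstream of Abcf1 by their 5' ends, had 6.01 ± 0.0562 (SD, n = 2). Further peaks stood at starts of Rbx1-ps, with 9.88 ± 0.426, and A930015D03Rik, with 5.45 ± 0.141. None of the 7 distal sites was nearest to Abcf1 among protein-coding genes: 3 were nearest to Gnl1, 2 to Ppp1r10 and 2 to H2-T24. No gene of the window is on the erythroid list.

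Sites were counted only when they stood in the thresholded lists of both replicates, a selection that favours agreement. At the 57 sites the 2 replicates gave nearly the same values. Enrichment differed between them by a factor of 1.05 at the median and 1.24 at most, against 1.06 and 1.69 over all distal sites. It was higher in replicate 1 at 24 sites and in replicate 2 at 33. Across the 57 sites the log2 enrichments of the replicates had a Pearson correlation of 0.975 and a Spearman correlation of 0.971. Over all distal sites these were 0.951 and 0.939. The correlations are descriptions, since the sites share the libraries. The summits lay 5 bp apart at the median and 35 bp at most. All 57 sites were also in the thresholded and the conservative lists made from both replicates, as were 100% and 99.9% of all distal sites. In the list ranked on both replicates, the global IDR of the 57 sites was at most 0.00276, against 0.125 over all distal sites. The medians of its −log10 were alike, at 3.01 and 3.02.

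**Figure D2:**
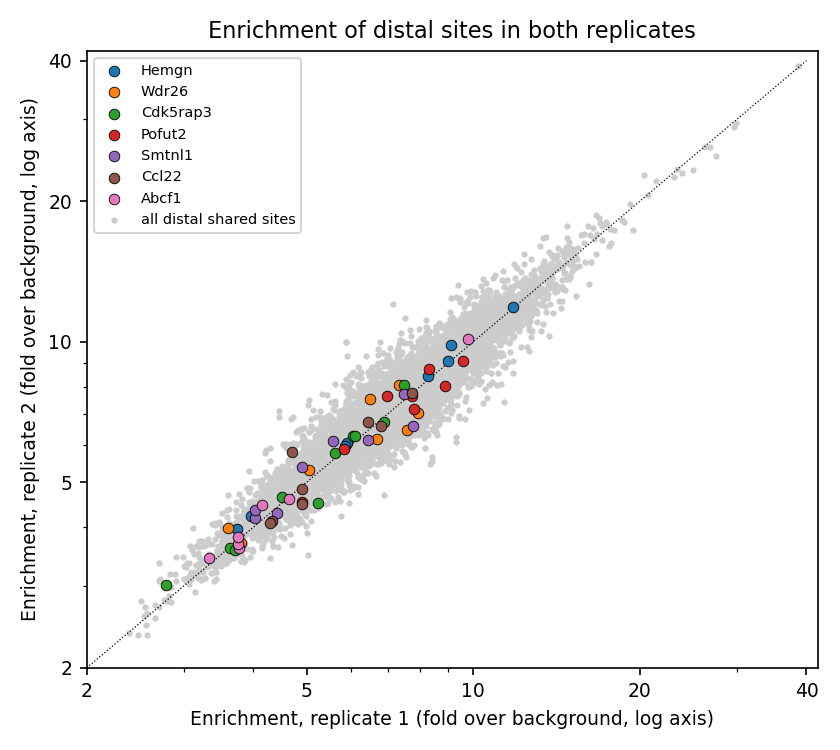
Each point is a distal site, with the enrichment over background in replicate 1 on the horizontal and in replicate 2 on the vertical axis, both on log axes, and the dotted line marks equal values. Coloured points are the 57 sites of the 7 genes, from 2.78 to 11.8 in replicate 1, and grey points are all 6415 distal sites, which reach 38.5.

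Many distal sites around a gene did not mean strong ones. The 57 sites had a median enrichment of 5.90 ± 0.0908 (SD, n = 2), against 7.22 ± 0.0849 over all distal sites, and their median percentile was 26.4. Of the 57, 27 (47.4%) lay below the 25th percentile, against 24.3% of all, and 5 (8.77%) above the 75th, against 24.1%. By significance the same sites stood at a median percentile of 46.8, against 49.6 over all. Their peaks were 421 bp and 463 bp wide at the median, against 508 bp and 514 bp over all distal sites.

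**Figure D3:**
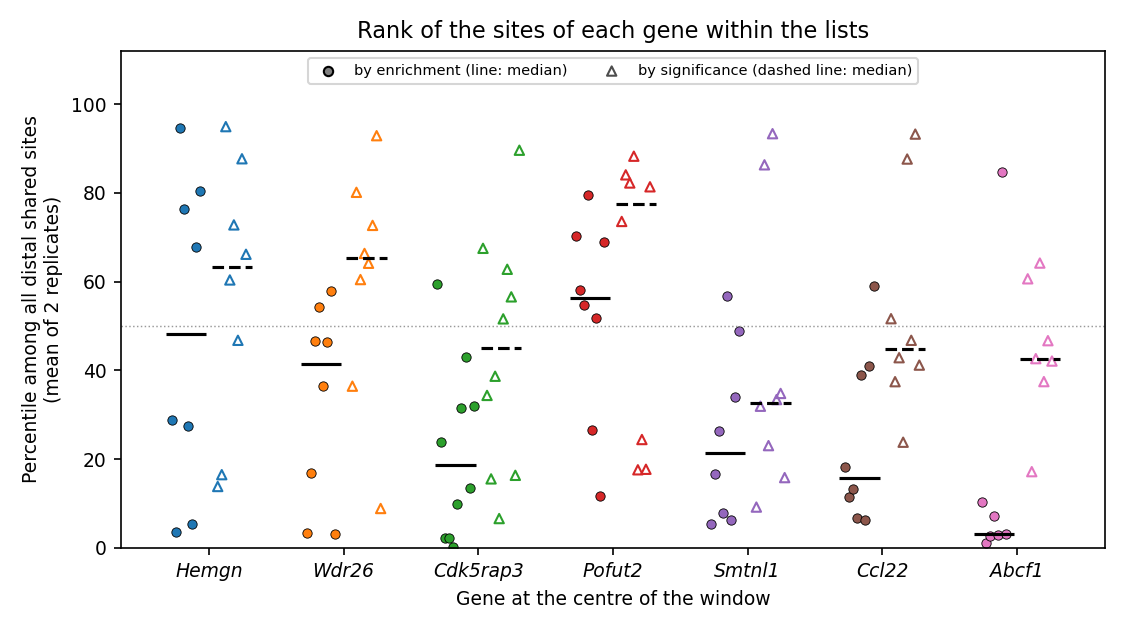
The vertical axis gives the percentile of each distal site among all 6415, as the mean of 2 replicates, and the horizontal axis the gene at the centre of the window. Filled circles rank by enrichment and open triangles by significance, with solid and dashed lines at the medians, which lie at 3.06 and 42.6 for Abcf1 and at 56.4 and 77.4 for Pofut2.

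The 7 genes differed among themselves in this. Median percentiles by enrichment were 56.4 for Pofut2, 48.2 for Hemgn, 41.4 for Wdr26, 21.4 for Smtnl1, 18.7 for Cdk5rap3, 15.7 for Ccl22 and 3.06 for Abcf1. Neighbours in this order had overlapping ranges of enrichment, so the order is a description of these lists. By significance Pofut2 was again highest, at 77.4, and Smtnl1 was lowest, at 32.7.

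The 256 further sites around the other genes with 7 or more had a median enrichment of 5.65 ± 0.0340 (SD, n = 2) and a median percentile of 23.9, close to the 57 sites, and the difference was not tested. Over all distal sites, enrichment was lower where sites were more crowded. The median percentile by enrichment was 64.4 for the 1774 sites with no other distal site within 50 kb, 52.6 with 1, 44.4 with 2 to 3, 32.9 with 4 to 6 and 26.2 with 7 to 12. Significance ran the other way, with median percentiles of 42.2, 48.7, 53.0, 54.4 and 64.1. The 57 sites had between 2 and 9 others within 50 kb, 6 at the median. The part of background, which enters the fold, in this was not tested.

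**Figure D4:**
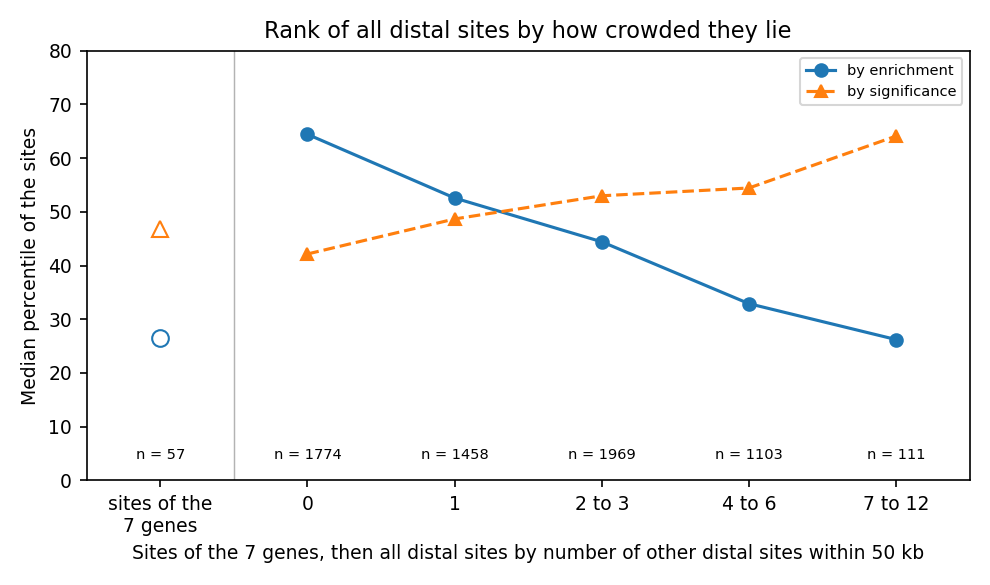
The vertical axis gives the median percentile by enrichment (circles) and by significance (triangles). Open symbols at the left are the 57 sites of the 7 genes, at 26.4 and 46.8, and filled symbols are all distal sites by the number of other distal sites within 50 kb, from 64.4 down to 26.2 by enrichment, with the number of sites above the axis.

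Sequence words at the summits of the 57 sites were about as common as at all distal sites. In the 75 bp to each side of the summit, 26 sites (45.6%, 95% Wilson interval 33.4% to 58.4%) held a GATA word, against 48.1% of all distal sites. KLF words stood at 19 (33.3%, 22.5% to 46.3%), against 27.4%, and CTCF words at 7 (12.3%, 6.08% to 23.2%), against 15.5%. An E-box word (CAGNTG) stood at 28 sites, an ETS word (AGGAAG) at 11, a RUNX word (TGTGGT) at 11 and an NFE2 or AP-1 word (TGANTCA) at 5. Each of these shares over all distal sites, 44.7%, 19.1%, 13.9% and 9.66%, lay within the interval of the 57. The intervals cover counting error over sites only, and sites of a window are not independent.

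**Figure D5:**
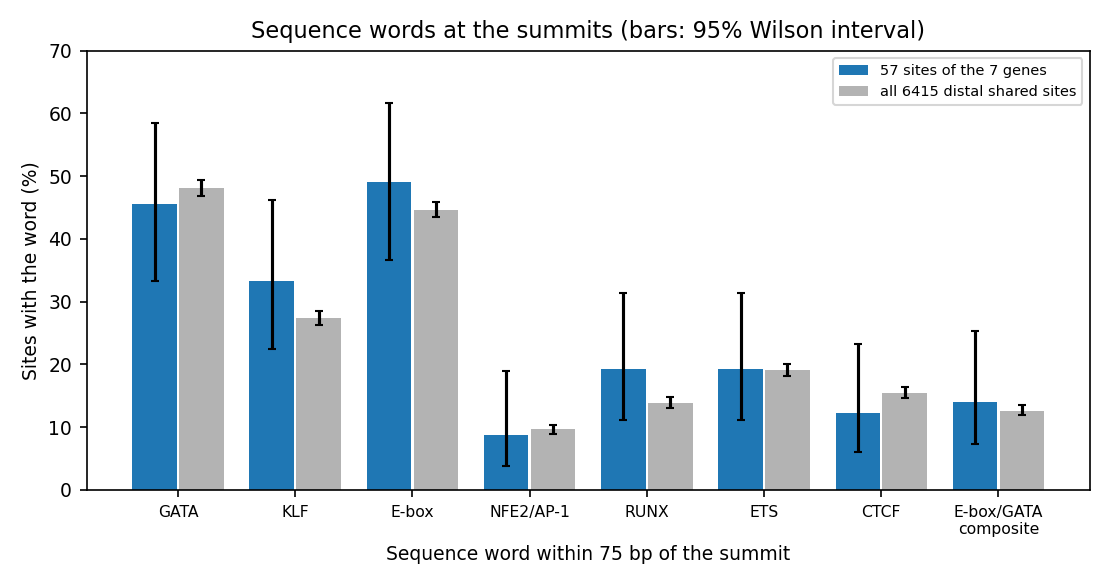
The vertical axis gives the percentage of sites with a sequence word within 75 bp of the summit, and the horizontal axis the word. Blue bars are the 57 sites of the 7 genes, grey bars all 6415 distal sites, and error bars 95% Wilson intervals, with 45.6% against 48.1% for GATA.

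By gene, GATA words were found at 6 of 10 sites of Cdk5rap3, 5 of 8 of Hemgn, 5 of 8 of Pofut2, 4 of 8 of Smtnl1, 3 of 8 of Wdr26, 2 of 7 of Abcf1 and 1 of 8 of Ccl22. At Abcf1, 5 of 7 sites held a KLF word and 4 of 7 a RUNX word, against 27.4% and 13.9% of all distal sites. Ccl22 and Smtnl1 had an E-box word at 6 of 8 sites each, against 44.7%. These were the highest counts by gene for the 3 words. At the low end, Hemgn had a KLF word at 1 of 8 sites and a RUNX word at 0, and Pofut2 an E-box word at 2 of 8. The 26 sites with a GATA word had a median percentile of 32.9 by enrichment and the 31 without it 16.96. Over all distal sites these medians were 50.7 and 49.7. Those without the word include most sites of Ccl22 and Abcf1, whose median percentiles of 15.7 and 3.06 were the lowest of the 7 genes. The difference is thus mixed with that between genes, and it was not tested. Windows of over 50% masked repeat bases numbered 3 of 57, against 4.13% of all distal sites.

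Promoters were open in both replicates for 5 of the 7 genes, against 41.4% of all protein-coding genes and 55 of the 79 genes with 7 or more distal sites (69.6%). Among the open ones, Abcf1 (11.3 ± 0.239) and Pofut2 (11.2 ± 0.224) exceeded the median of open promoters, which was 9.73 in replicate 1 and 9.86 in replicate 2. Cdk5rap3 (6.95 ± 0.278), Wdr26 (5.68 ± 0.0841) and Hemgn (4.85 ± 0.164, SD, n = 2 throughout) were below it. By significance, the Cdk5rap3 promoter (83.1 and 94.6) stood close to those of Abcf1 (92.6 and 99.6) and Pofut2 (98.3 and 109.9). Wdr26 (42.2 and 41.1) and Hemgn (34.9 and 40.1) were lower by significance too. Cdk5rap3, Wdr26 and Hemgn are the members on the erythroid list.

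That list of 62 genes, linked to red cells by their own role or that of a partner, was chosen with earlier results of these data known. It is thus no independent evidence. Of its 62 members, 10 had 7 or more distal sites, as did 0.360% of all protein-coding genes. Among the 10 were Hemgn, Wdr26 and Cdk5rap3, which were themselves chosen by this count. Ube2l6 and Slc43a1, also among them, lie in the Smtnl1 window and share sites with it. The count is therefore a description only. The median number of distal sites was 2 for the list and 0 for all protein-coding genes. An open promoter was found for 59 of the 62, all but Alas2, Cd44 and Trim15.

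At the threshold, Abcf1 with 7 sites was just inside, as 1 of 56 genes with that count, and 115 genes had 6. In the windows described, Timm10 had 8 sites, as many as Smtnl1 beside it. Anp32b, Ube2l6 and Slc43a1 had 7, and Trmo, Serping1, Cx3cl1, Gnl1 and Prr3 had 6. The 79 genes fall into 40 separate regions when 5' ends within 100 kb are joined, so that genes of a region share sites. The site of Hemgn 49.8 kb upstream and that of Abcf1 49.8 kb downstream lay just inside the window of 50 kb. Neighbouring peaks were counted separately, also the close ones upstream of Ccl22 and Abcf1, and counts after merging them were not computed. Peaks of a single replicate added 2 distal sites at Hemgn and 2 at Ccl22 (replicate 2), 1 at Abcf1 (replicate 2) and 1 at Cdk5rap3 (replicate 1).

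Genes with the most similar arrangement of distal sites were sought by counts in 10 bins of 10 kb along the strand, from both replicates, as the sum of absolute differences between bins. The closest to Hemgn was Gm10300 on chromosome 4, with a difference of 1 and 7 distal sites, and the closest to Abcf1 was Smg9, with a difference of 1 and 6 sites. For the other 5 genes the smallest difference was 3 or 4: Parp10 for Wdr26, Psmd12 for Cdk5rap3, Gm853 for Pofut2, Hmg20b for Smtnl1 and Oas1f for Ccl22. The next most similar were Tmcc2 to Hemgn, Pcnx3 to Abcf1, Zc3h18 to Wdr26, Taf8 to Cdk5rap3, Mcat to Pofut2, Slc22a20 to Smtnl1 and Timeless to Ccl22, with differences of 2 to 4.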

How the data were processed

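ATAC-seq peak lists of 2 biological replicates of mouse erythroblasts were used. Per the labels and the deposited file listings, each replicate has its own thresholded list and a less strict pseudoreplicated list, further lists were made from both replicates, and coordinates are mm10. Aligner, caller and version were not given in the sources used here. Deposited enrichment is a fold ratio of the summit over background, and the deposited significance is a −log10 p-value, both from the authors' peak caller. The ranked list also gives a score by the authors, the −log10 of the global IDR.

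Intervals on the autosomes, X and Y were each counted once and placed at the summit of highest enrichment. Peaks of both replicates overlapping by at least 1 bp were joined, which gave 16010 shared sites. Of these, 6415 had both summits over 1 kb from any GENCODE M21 start site. Percentiles rank a site among these within each list. Annotation and sequence words were taken at the summit of replicate 1, with 75 bases of GRCm38.p6 to each side for the words. A promoter was open when a peak of each replicate reached within 1 kb of a start site. Wilson intervals at 95% cover counting error only. Nothing was compared between groups and no test was run. The overlap, distance and word steps were tested on simulated data.

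The members, the erythroid list, the markers and the words were chosen with earlier results of these data known. The genes named were the 7 members, the protein-coding genes in their windows, the genes nearest to their sites and, by the bin counts, 2 similar genes each more than 100 kb away. Results for 1 gene are not reported here. Open promoters outside the windows, the composite element and the strength by crowding were added after values were seen. Python 3.11.15, numpy 2.4.6, pandas 2.3.3, scipy 1.17.1, networkx 3.6.1, pyfaidx 0.9.0.4 and matplotlib 3.10.9 were used.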

Additional observations from a re-analysis of the deposited data

How the results depend on the processing

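The 57 distal sites, 8 per gene at the median, stayed within 1.5 times these counts under 50% reciprocal overlap, the less strict lists, distal limits of 500 or 2500 bp, protein-coding starts only, a window of 100 kb and, added after seeing the data, the peak edge in place of the summit. In the stronger part of each list (enrichment above the list's median), 8 sites remained, 0 per gene at the median, and within 25 kb there were 23, 4 per gene. Without 1 replicate the total was 59 to 62, with 8 per gene in both cases. All 7 genes kept 7 or more sites in each of these settings but 3: 4 genes did with a distal limit of 2500 bp, and 0 in the stronger part of the lists and within 25 kb. The less strict lists, 500 bp limit, protein-coding starts, 100 kb window and single replicates loosen the rule that chose the genes. Keeping 7 sites there was therefore nearly fixed in advance. Of the settings that tighten the rule, only 50% reciprocal overlap and the peak edge left all 7 genes with 7 or more.

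The median percentile by enrichment, 26.4, stayed below 50 throughout. It was 41.5 in the less strict lists, 38.5 in the stronger part, 28.1 and 23.6 with distal limits of 500 and 2500 bp, 31.5 and 31.7 within 25 and 100 kb, 25.7 by the peak edge, and 30.0 to 30.2 without 1 replicate. The cause was not tested. In the stronger part of the lists, 62.5% of 8 sites held a GATA word, against 50.4% of all distal sites there. In the other settings the share lay between 38.6% and 45.8%, against 39.9% to 49.7% of all distal sites. Among these it was above the share over all distal sites only in the less strict lists (41.2% against 39.9%). Without 1 replicate it was 43.5% to 44.1%, against 44.7% to 45.8% of all distal sites. Open promoters numbered 2 of 7 in the stronger part (Pofut2 and Abcf1) and 3 of 7 with the outermost 5' end as the only start, which left out Hemgn and Wdr26. They numbered 5 of 7 with each replicate left out.

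No paired analysis was possible because the series holds 1 group with 2 replicates. Depth is unknown, and a site missing from a list is not shown to be closed.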
